A study of Mus musculus with 13 samples.

Results

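The interneuron and neuropeptide marker genes are 10 genes chosen by symbol from the deposited counts: Gad1, Gad2, Slc32a1, Sst, Pvalb, Vip, Npy, Cck, Reln and Calb2. All 10 were found among the 55291 gene symbols in each of the 13 libraries. The libraries were made from organotypic entorhino-hippocampal tissue cultures of wildtype C57BL/6 mice, prepared at postnatal day 4 to 5 and kept for at least 18 days in vitro, and each library held the RNA of the CA1 region of 1 culture. There were 5 non-lesioned control cultures, 4 cultures after Schaffer collateral lesion (SCL), which severs the axons from CA3, and 4 after entorhinal cortex lesion (ECL), which severs the perforant path. Both lesions were scalpel cuts in a slice culture, the scar was not collected, and lesioned cultures were isolated 3 days later. The titles name CA1 as the tissue, whereas the extraction protocol mentions the dentate gyrus instead. Nothing in the labels says which cultures came from the same animal.

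GABAergic interneurons are the minority of hippocampal neurons that inhibit the others. They make GABA from glutamate with the decarboxylases GAD67 (Gad1) and GAD65 (Gad2), and the transporter VGAT (Slc32a1) loads it into vesicles. Beyond this shared core, interneurons are told apart by calcium-binding proteins (Pvalb, Calb2) and by the peptides or secreted proteins they make (Sst, Npy, Vip, Cck, Reln). Most of these genes have other sources as well: Cck is also made by pyramidal neurons, and Reln by Cajal-Retzius cells. All 10 genes are protein-coding, and counts cover their exons. The members called in a comparison lie, on GRCm38 with GENCODE M21, at chr2:70553072-70602014 (Gad1, plus strand), chr2:158610767-158615748 (Slc32a1, plus), chr6:49822710-49829507 (Npy, plus), chr9:121489824-121495694 (Cck, minus) and chr5:21884454-22344702 (Reln, minus). In whole CA1 tissue, fewer cells of a type and less RNA per cell cannot be told apart.

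Among the members, Sst and Vip are known targets of the cAMP-responsive factor CREB, which binds their promoters. The RefSeq promoters (GRCm38.p6, 250 bases before to 50 after the start site, gene strand) are shown for the 4 genes of neuropeptides (Sst, Vip, Cck and Npy), of which Npy and Cck passed the test of a rise and the others did not. Capitals mark the cAMP response element TGACGTCA or its first 5 letters TGACG, searched on both strands, so that a short match on the other strand reads CGTCA. The windows lie at chr16:23890795-23891094 (minus strand, Sst), chr10:5638968-5639267 (plus, Vip), chr9:121495645-121495944 (minus, Cck) and chr6:49822460-49822759 (plus, Npy).
Sst: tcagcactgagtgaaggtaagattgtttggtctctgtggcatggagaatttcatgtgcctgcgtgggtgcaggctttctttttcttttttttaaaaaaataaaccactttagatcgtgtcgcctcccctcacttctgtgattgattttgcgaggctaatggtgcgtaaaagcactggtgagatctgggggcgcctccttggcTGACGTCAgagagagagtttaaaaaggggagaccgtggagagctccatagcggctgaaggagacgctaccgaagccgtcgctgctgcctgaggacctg
Vip: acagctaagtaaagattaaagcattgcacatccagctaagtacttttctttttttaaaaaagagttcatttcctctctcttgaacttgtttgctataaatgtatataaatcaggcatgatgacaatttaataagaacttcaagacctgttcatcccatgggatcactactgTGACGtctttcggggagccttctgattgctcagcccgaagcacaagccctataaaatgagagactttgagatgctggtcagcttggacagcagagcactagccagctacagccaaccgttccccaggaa
Cck: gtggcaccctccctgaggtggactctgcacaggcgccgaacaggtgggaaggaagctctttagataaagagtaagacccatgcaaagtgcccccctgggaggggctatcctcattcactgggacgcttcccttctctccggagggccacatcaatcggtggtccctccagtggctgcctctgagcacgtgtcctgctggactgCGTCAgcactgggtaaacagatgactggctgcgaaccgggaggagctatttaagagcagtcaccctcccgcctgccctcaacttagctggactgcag
Npy: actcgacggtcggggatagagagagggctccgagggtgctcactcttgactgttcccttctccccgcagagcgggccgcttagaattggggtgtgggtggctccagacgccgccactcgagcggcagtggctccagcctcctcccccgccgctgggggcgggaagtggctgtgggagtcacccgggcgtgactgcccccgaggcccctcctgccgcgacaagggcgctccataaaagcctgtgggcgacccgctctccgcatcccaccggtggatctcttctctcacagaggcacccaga
The full element was found in the Sst promoter alone among the 10 promoters listed for 9 of the members, at -48 to -41 from the start site, and in 1.79% of 32851 promoters of this length. The short match was found in the promoters of Sst, Vip (-79 to -75), Cck (-47 to -43) and Gad2 (-33 to -29), against 20.8% of all promoters. The Npy window held neither, and Calb2 had no entry. TATAAA was found in the windows of Vip and Gad1 (13.6% of all promoters), and the Egr motif GCGTGGGCG in none of the 10 (0.612% of all promoters). Such matches are descriptions of the letters and say nothing about binding.

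Library totals were 14371152 to 21092612 counts in controls, 16405517 to 56786613 in the SCL group and 20210165 to 46449937 in the ECL group. Controls stood apart from lesioned cultures on the first principal component (49.8% of the variance), at -62.2 (control 4) to -17.7 against 3.05 to 34.7. The column headings give 3 female and 2 male control cultures, 3 female and 1 male SCL cultures, and 1 female and 3 male ECL cultures. Of the 12 hippocampal excitatory neuron genes on a list of markers, 9 could be tested, and 0 passed the test after either lesion. After ECL, 1 was called higher with TMM factors from all symbols and 1 was called lower without ECL 2. Microglia genes moved with the lesions: all 7 passed the test as higher after SCL and 4 of 7 after ECL, and their summed level was 229 to 293 CPM in controls, 476 to 1107 after SCL and 423 to 789 after ECL. Astrocyte genes were higher in 3 of 6 cases after SCL and 2 of 6 after ECL, oligodendrocyte genes in 2 of 7 after each lesion, and pan-neuronal genes were lower in 3 of 8 and 5 of 8. Of all genes tested, 13.1% had a called rise in the SCL comparison and 15.2% in the ECL comparison. A called fall was found for 11.8% and 12.5%. In lists this short, counts of 2 of 6 or 2 of 7 do not stand clear of that background. No list count was tested against it. The number of pan-neuronal genes called lower after ECL was 1 without ECL 4 and 2 without ECL 1, ECL 2, control 1 or control 5, and it was 1 after each lesion with TMM factors from all symbols. The number of oligodendrocyte genes called was 1 after SCL without SCL 2, SCL 3, SCL 4, control 1, control 3, control 4 or control 5, and 1 after ECL without ECL 2, ECL 4 or control 5. For astrocyte genes after ECL it was 1 without ECL 2, ECL 4, control 1, control 5, control 2 or control 3, and 1 gene was called lower without either of the last 2 named. Microglia genes called after SCL numbered 5 without SCL 2, and 6 without SCL 3, control 1, control 2 or control 3. After ECL they numbered 3 without ECL 2, ECL 4 or control 1, 5 without control 4, and 6 with TMM factors from all symbols. Astrocyte genes called after SCL numbered 2 without SCL 2, SCL 4, control 1, control 3, control 4 or control 5. They numbered 4 without SCL 1 or control 2, and with TMM factors from all symbols. The part of these differences in cell-type genes in the results below was not tested.

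Levels are given as CPM, the counts relative to the library's total, scaled between libraries with TMM factors. Per kilobase of exon, the order in the control cultures was led by Sst with 1259 ± 409 (SD, n = 5) CPM per kb and Npy with 811 ± 265, whose ranges overlapped. Cck followed with 184 ± 28.0 and Pvalb with 144 ± 40.3, which also overlapped, and then Gad1 with 42.0 ± 4.65, Gad2 with 25.0 ± 4.99 and Vip with 13.8 ± 2.33, each apart from its neighbours. At the low end stood Slc32a1 with 4.85 ± 1.39 and Calb2 with 3.04 ± 0.816 CPM per kb, which overlapped, and Reln with 1.21 ± 0.114. Sst, Npy, Cck and Pvalb were thus above both enzymes of GABA synthesis on this scale of level per length. The transcript of the vesicular transporter was among the scarcest. Calb2, with 24 to 333 counts per library, did not reach the mean normalized count of 150 required for testing, and 9 members did.

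**Figure D1:**
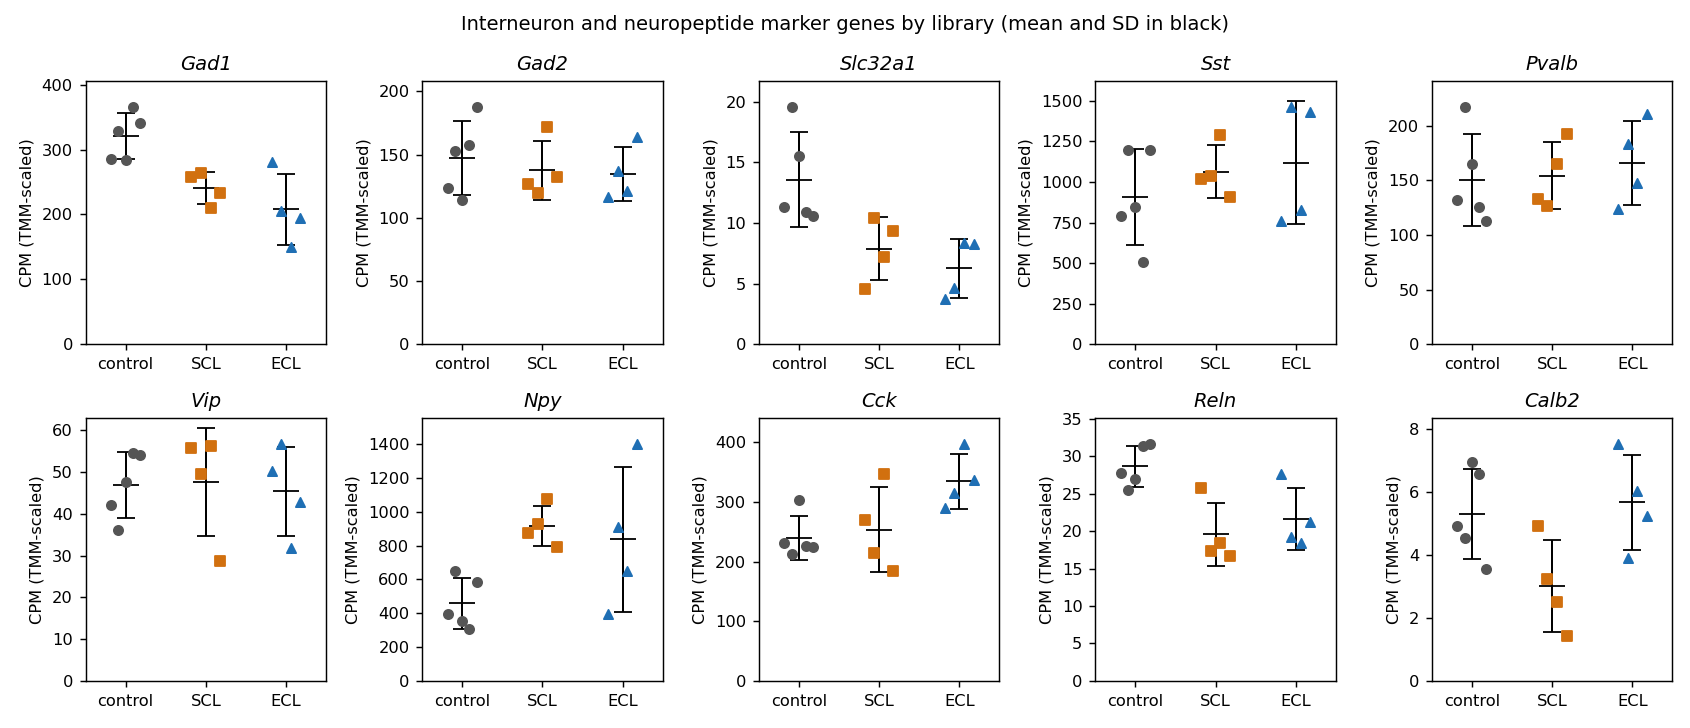
Level of each marker gene in CPM (TMM-scaled, linear axis from 0) in every control, SCL and ECL library; points are libraries, and black marks give the mean and SD. All SCL libraries lay above all controls for Npy, and all lesioned libraries below all controls for Gad1 and Slc32a1.

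To ask whether a lesion changed the levels, each lesion group was compared with the 5 controls by edgeR's quasi-likelihood test over all genes tested, and a gene was called when its adjusted p (Benjamini-Hochberg) was under 0.05. After SCL, 3 of 9 members were called (Npy higher, Gad1 and Reln lower), against 24.9% of the 11438 genes tested. Calls over all genes were 13.1% higher and 11.8% lower. After ECL, 4 of 9 members were called (Npy and Cck higher, Gad1 and Slc32a1 lower), against 27.8% of 11212 genes, with 15.2% higher and 12.5% lower. With 9 members, these counts do not stand clear of that background. The members' median log2 fold change was 0.03 after SCL and -0.04 after ECL, beside 0.01 and -0.01 over all genes tested. Libraries of lesion and control did not overlap for 3 of 9 members after SCL (Gad1, Slc32a1, Npy; 23.6% of all genes) and for 2 of 9 after ECL (Gad1, Slc32a1; 25% of all genes). Both comparisons share the same controls.

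**Figure D2:**
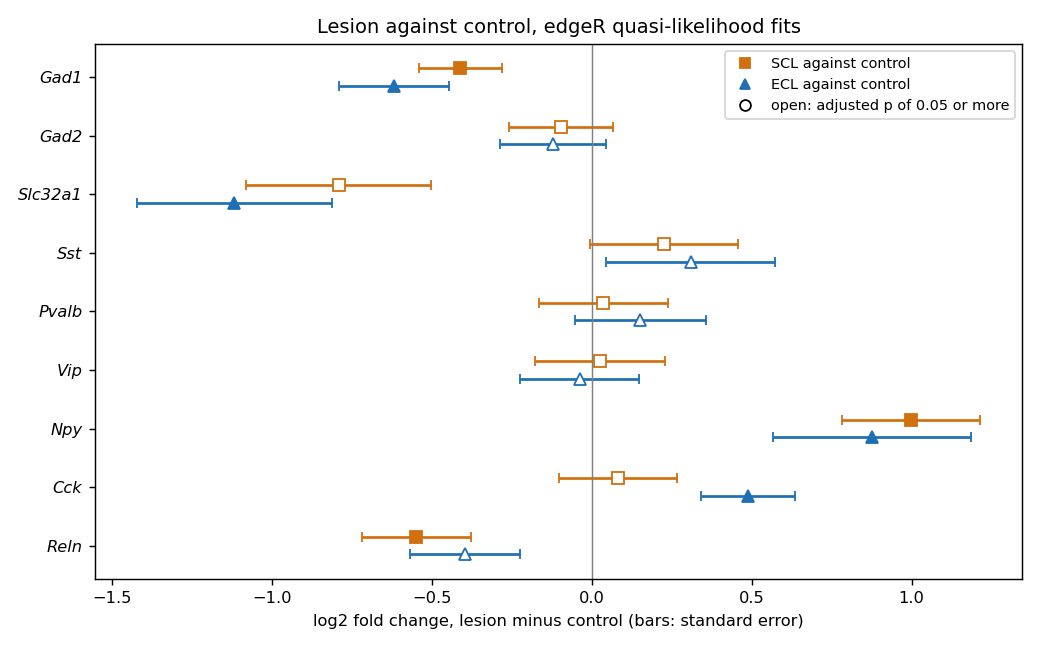
Log2 fold change of the 9 tested marker genes after SCL (squares) and ECL (triangles) against the same 5 controls, with standard errors; filled symbols have an adjusted p under 0.05 over all genes tested. Npy lies highest with 1.00 and 0.88, Slc32a1 lowest with -0.79 and -1.12.

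Npy, which encodes the inhibitory co-transmitter neuropeptide Y, was the member with the largest rise. Its levels were 394, 651, 357, 309 and 585 CPM in control libraries 1 to 5 and 873, 929, 1075 and 794 CPM in SCL libraries 1 to 4. Each SCL library was above each control. The rise was 2.00-fold (log2 fold change 1.00 ± 0.22 SE, edgeR adjusted p = 0.00708). It was called under each of 20 alternative settings, with log2 fold changes of 0.88 to 1.18. The ECL libraries held 395, 908, 649 and 1400 CPM, so that ECL 1 lay among the controls, ECL 3 just under the highest control, and ECL 2 and ECL 4 above them all. The mean difference was similar in size, 1.83-fold (log2 fold change 0.88 ± 0.31 SE, edgeR adjusted p = 0.0482), but less certain. The call was lost without control 1, control 3, control 4, control 5, ECL 2 or ECL 4 (log2 fold changes of 0.82, 0.80, 0.75, 0.97, 0.84 and 0.51), with a sex term (0.56, adjusted p = 0.217) and with DESeq2 (0.87, adjusted p = 0.0801). ECL 1 was the only library from a female culture in its group.

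Somatostatin (Sst) marks dendrite-targeting interneurons, many of which also make neuropeptide Y. Control libraries held 793, 1195, 846, 504 and 1200 CPM, with control 4 lowest. The SCL libraries held 1019, 1036, 1292 and 908 CPM and the ECL libraries 761, 1460, 825 and 1430 CPM. Both lesion groups overlapped the controls. Sst did not pass the test after SCL (log2 fold change 0.23 ± 0.23 SE, edgeR adjusted p = 0.498) or after ECL (0.31 ± 0.26 SE, adjusted p = 0.407). Relative to Sst in the same library, Npy counts were 0.497, 0.545, 0.421, 0.612 and 0.488 per Sst count in controls and 0.857, 0.897, 0.832 and 0.875 after SCL. After ECL they were 0.519, 0.622, 0.786 and 0.979, from within the control range to above it. This ratio needs no scaling between libraries. It was chosen after its values had been seen, and no test was made of it.

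**Figure D3:**
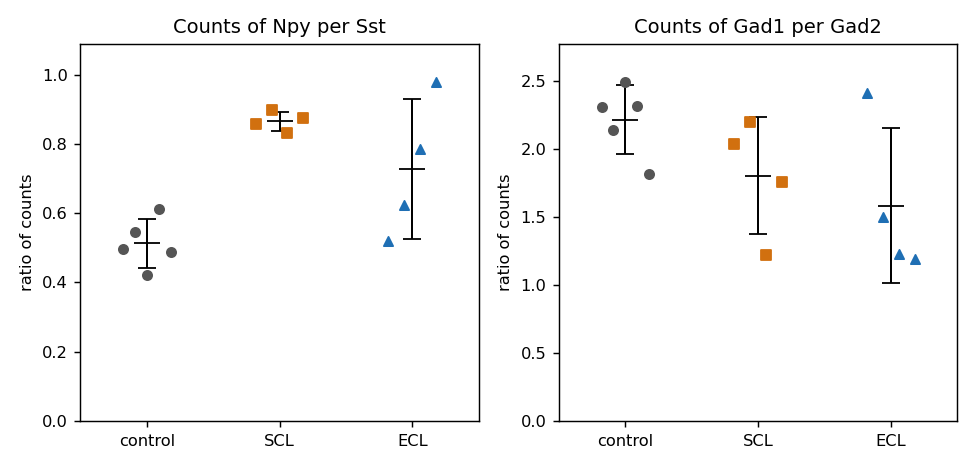
Ratio of counts within each library for Npy per Sst (left) and Gad1 per Gad2 (right), with mean and SD in black. Npy per Sst count was 0.421 to 0.612 in controls and 0.832 to 0.897 after SCL, and Gad1 per Gad2 count was 1.82 to 2.50 in controls, 1.22 to 2.20 after SCL and 1.19 to 2.42 after ECL.

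Of the 3 core GABAergic genes, Gad1 was called lower after both lesions and Slc32a1 after ECL, while Slc32a1 after SCL and Gad2 after either lesion did not pass the test. Gad1 held 285, 328, 284, 365 and 341 CPM in controls, 258, 264, 210 and 233 CPM after SCL, and 281, 205, 149 and 195 CPM after ECL. Every lesioned library was below every control, although ECL 1 was only just so. Gad1 fell by 0.41 on the log2 scale after SCL (SE 0.13, edgeR adjusted p = 0.0353) and fell by 0.62 after ECL (SE 0.17, adjusted p = 0.0171). The SCL call was lost without control 2, control 4, control 5, SCL 2, SCL 3 or SCL 4 (log2 fold changes -0.41, -0.37, -0.39, -0.45, -0.34 and -0.39). Each of those fits also held fewer libraries, and the part of that in the losses was not tested. The ECL call was lost without ECL 4 (-0.59, adjusted p = 0.0559). With TMM factors taken from all symbols, which raised the median over all genes tested to 0.21 after SCL and 0.18 after ECL, Gad1 was at -0.20 and -0.42 and was called after neither.

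Slc32a1 held 11.3, 19.5, 15.5, 10.9 and 10.6 CPM in controls, 4.53, 10.4, 7.18 and 9.37 CPM after SCL, and 3.75, 4.65, 8.34 and 8.28 CPM after ECL. Controls and lesioned libraries did not overlap, with SCL 2 close to the lowest control. The gene fell by 1.12 on the log2 scale after ECL (SE 0.30, edgeR adjusted p = 0.0149). After SCL the log2 fold change was -0.79 ± 0.29 SE (adjusted p = 0.0605), and it passed the test with DESeq2 (adjusted p = 0.0263) and without control 4 (-0.87, adjusted p = 0.0497). The ECL call was lost without ECL 1 (-0.92, adjusted p = 0.0503) or ECL 2 (-0.997, adjusted p = 0.0522). Counts ignored strand, and 24.9% of the exon bases of Slc32a1 are shared with the opposite-strand gene Gm14205, which had 0 counts in all 13 libraries. That does not show whether reads over the shared bases were counted for Slc32a1.

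Gad2, the decarboxylase of axon terminals, held 124, 153, 114, 158 and 187 CPM in controls, 126, 120, 172 and 132 CPM after SCL and 116, 137, 121 and 164 CPM after ECL. The 3 groups overlapped throughout. The log2 fold changes were -0.09 ± 0.16 SE after SCL (edgeR adjusted p = 0.705) and -0.12 ± 0.17 SE after ECL (adjusted p = 0.625), and both turned positive (0.10 and 0.05) with TMM factors from all symbols. Gad1 counts per Gad2 count were 2.31, 2.15, 2.50, 2.32 and 1.82 in controls, 2.04, 2.20, 1.22 and 1.76 after SCL and 2.42, 1.503, 1.23 and 1.19 after ECL. The lesioned groups spread from within the control range to below it. This ratio was likewise chosen after its values had been seen.

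Cck encodes cholecystokinin, the peptide of a class of basket cells that is also transcribed in pyramidal neurons. It held 232, 213, 304, 226 and 224 CPM in controls, where control 3 stood above the rest. After SCL the libraries spread widely, with 271, 215, 346 and 184 CPM. After ECL they held 290, 315, 397 and 337 CPM, of which only ECL 1 was below control 3. Cck rose 1.40-fold after ECL (log2 fold change 0.49 ± 0.15 SE, edgeR adjusted p = 0.0243) and did not pass the test after SCL (0.08 ± 0.19 SE, adjusted p = 0.777). The call after ECL was lost without control 1, control 2, control 5, ECL 3 or ECL 4 (0.48, 0.45, 0.46, 0.40 and 0.49) and with a sex term (0.49, adjusted p = 0.0545). The difference between the lesions themselves, 0.41 on the log2 scale (SE 0.20), did not pass the test (edgeR adjusted p = 0.704).

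Reln encodes reelin, a secreted glycoprotein of the extracellular matrix made by interneurons of the outer layers and by Cajal-Retzius cells. Controls held 27.8, 25.5, 27.0, 31.4 and 31.6 CPM, the narrowest spread of the 10 genes relative to the mean. After SCL the values were 25.8, 17.4, 18.5 and 16.7 CPM and after ECL 27.6, 19.3, 18.4 and 21.2 CPM. In each lesion group library 1 lay within the controls and the other three below them. Reln fell by 0.55 on the log2 scale after SCL (SE 0.17, edgeR adjusted p = 0.0336). After ECL the log2 fold change was -0.40 ± 0.17 SE (adjusted p = 0.1), and it passed the test without ECL 1 (-0.53, adjusted p = 0.0455). The SCL call was lost without control 1, control 5, SCL 2, SCL 3 or SCL 4 (-0.56, -0.51, -0.49, -0.51 and -0.48), and with TMM factors from all symbols (-0.34, adjusted p = 0.176). The 7 Cajal-Retzius cell genes looked at, among them Trp73, were all under the test's minimum, with a summed level of 1.21 to 6.35 CPM in controls, 0.946 to 3.26 after SCL and 1.35 to 3.95 after ECL.

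The remaining subtype markers did not pass the test in any comparison. Pvalb, the calcium-binding protein of fast-spiking basket and axo-axonic cells, held 132, 217, 164, 125 and 112 CPM in controls, 133, 127, 165 and 193 CPM after SCL and 123, 183, 147 and 210 CPM after ECL. Its log2 fold changes were 0.04 ± 0.20 SE (edgeR adjusted p = 0.911) and 0.15 ± 0.20 SE (adjusted p = 0.618). Vip, which marks interneurons that inhibit other interneurons, held 42.2, 36.0, 47.5, 54.6 and 54.0 CPM in controls, 55.8, 49.5, 56.2 and 28.8 CPM after SCL and 50.2, 56.7, 31.7 and 42.8 CPM after ECL. For both genes the 3 groups covered much the same range. The log2 fold changes of Vip were 0.03 ± 0.20 SE (adjusted p = 0.937) and -0.04 ± 0.19 SE (adjusted p = 0.902). Calb2, the gene of the calcium-binding protein calretinin, held 4.91, 4.53, 6.96, 6.55 and 3.56 CPM in controls, 4.90, 3.23, 2.51 and 1.42 CPM after SCL and 7.52, 3.91, 6.04 and 5.23 CPM after ECL. Its mean was 5.30 CPM in controls, 3.02 after SCL and 5.67 after ECL. A fit with no count minimum also took its TMM factors from all symbols with a count, unlike the fits of the other members. There the log2 fold changes of Calb2 were -0.57 ± 0.38 SE after SCL (edgeR adjusted p = 0.306) and 0.33 ± 0.34 SE after ECL (adjusted p = 0.494). Between the lesions it was 0.90 ± 0.28 SE higher after ECL (adjusted p = 0.17).

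Set directly against each other, ECL and SCL differed in 0 of the 9 members by edgeR, and in 0 of 12232 genes tested (0% called, 897 at an unadjusted p under 0.05, and 62 called by DESeq2, none of them a member). The log2 difference of ECL minus SCL was -0.12 ± 0.31 SE for Npy, -0.21 ± 0.18 SE for Gad1, -0.33 ± 0.33 SE for Slc32a1 and 0.15 ± 0.19 SE for Reln. These errors leave room for differences of a size like that of the changes themselves.

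To compare the subtype genes without scaling between libraries, each count was divided by the summed counts of Gad1, Gad2 and Slc32a1 in the same library. For Npy this ratio was 0.938, 1.30, 0.862, 0.578 and 1.09 in controls, 2.25, 2.36, 2.76 and 2.12 after SCL and 0.985, 2.62, 2.33 and 3.81 after ECL. All SCL libraries and all ECL libraries but ECL 1 were above all controls. The ratio was 2.57-fold higher after SCL (two-sided exact permutation test, p = 0.00794, the smallest that 5 against 4 libraries allow, adjusted p = 0.133 over 21 comparisons) and 2.38-fold higher after ECL (exact permutation p = 0.0317, adjusted p = 0.133). For Sst the ratio was 1.89, 2.38, 2.05, 0.944 and 2.23 in controls, 2.62, 2.63, 3.32 and 2.43 after SCL and 1.90, 4.21, 2.96 and 3.89 after ECL. The SCL libraries of Sst were all above the controls, by 1.51-fold on average (exact permutation p = 0.0317, adjusted p = 0.133). Cck per core count was 1.94-fold and Vip 1.33-fold higher after ECL (exact permutation p = 0.0238 each, adjusted p = 0.133 each). None of the 21 comparisons, which cover Sst, Pvalb, Vip, Npy, Cck, Reln and Calb2, had an adjusted p under 0.05, and Gad1, a part of the denominator, had itself fallen. The smallest exact permutation p possible was 0.00794 for 5 against 4 libraries and 0.0286 for 4 against 4. With adjustment over 21 comparisons, no ratio could come under 0.05 on its own, so the lack of calls decides little.

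**Figure D4:**
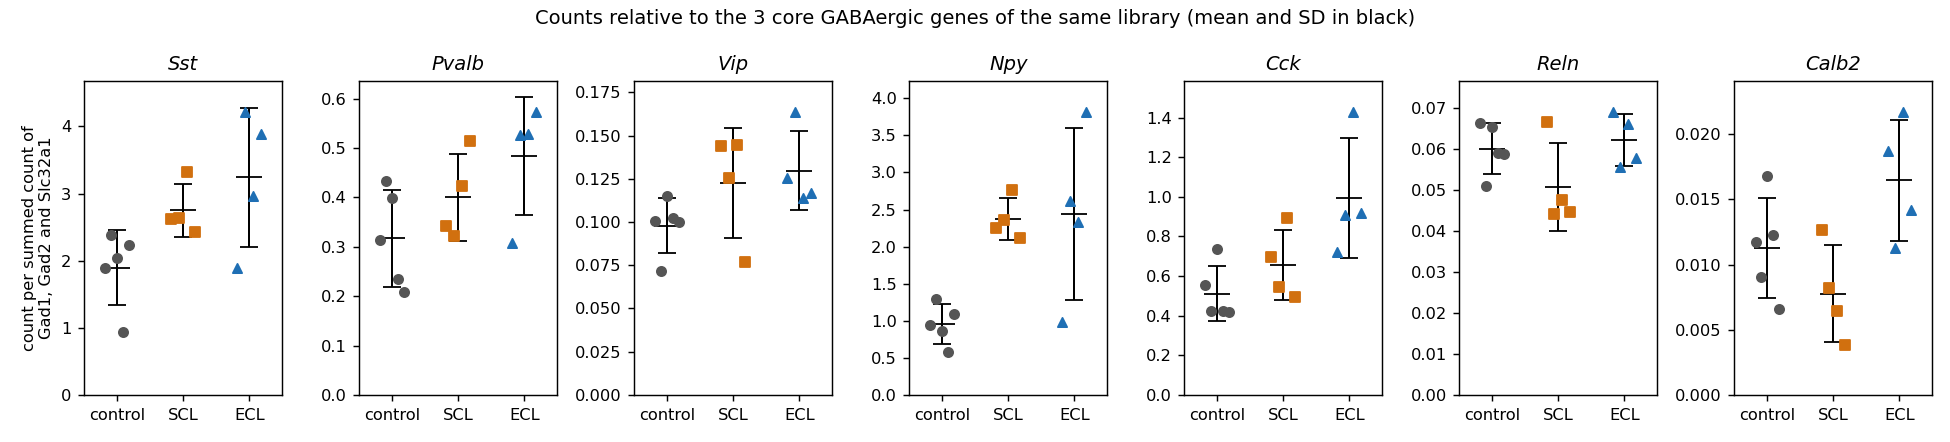
Counts of 7 subtype genes per summed count of Gad1, Gad2 and Slc32a1 in each library (linear axes from 0), with mean and SD in black. Npy reached 2.12 to 2.76 after SCL against 0.578 to 1.30 in controls, and Reln lay between 0.0440 and 0.0688 in the lesioned libraries.

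Other genes of the same cells and pathways were read from lists, with 2 called genes at most named per direction. Of 20 interneuron transcription factors, 14 were tested, of which 5 were called lower after SCL and 9 after ECL, with 0 higher after either. The share of all genes tested with a called fall was 11.8% for SCL and 12.5% for ECL. The median log2 fold change of the 14 transcription factors was -0.37 after SCL and -0.57 after ECL. With TMM factors from all symbols these medians were -0.16 and -0.38, beside all-gene medians of 0.21 and 0.18, and 2 and 3 were called lower. Dlx1, a homeobox factor of GABAergic precursors and mature interneurons, fell after SCL (log2 fold change -1.16 ± 0.22 SE, edgeR adjusted p = 0.00401) and after ECL (-1.27 ± 0.21 SE, adjusted p = 0.000762). Nr2f2, a nuclear receptor of interneurons from the caudal ganglionic eminence, fell likewise (-1.04 and -1.38, adjusted p = 0.00628 and 0.00141). Both were called under each of 12 fits, namely the one described, those with either of the other scalings, and those without 1 of the 9 libraries. Without SCL 1 or SCL 3 the number of factors called after SCL was 2, without SCL 2 it was 3, and without ECL 1 the number after ECL was 6. Several listed factors are also made by cells other than interneurons.

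Among 22 other interneuron subtype genes, 18 were tested, and 4 were called lower after SCL and 3 after ECL, with 0 higher, against 11.8% and 12.5% of all genes called lower. With TMM factors from all symbols 0 were called after either lesion, and the list's median log2 fold change was 0.0062 and 0.0301 beside the all-gene medians of 0.21 and 0.18, in place of -0.20 and -0.17. Erbb4, the neuregulin receptor of interneurons, fell after each lesion (log2 fold change -0.64 both times, edgeR adjusted p = 0.0217 and 0.0175), and the calls were lost without SCL 1 (-0.57), SCL 2 (-0.60) or SCL 3 (-0.64) and without ECL 4 (-0.63). The kainate receptor gene Grik1 fell as well (-0.60 and -0.64, adjusted p = 0.0111 and 0.0135). Neither Erbb4 nor Grik1 was called with TMM factors from all symbols. Without SCL 1, SCL 2 or SCL 3 the number of these genes called lower after SCL was 1, without control 1, control 2 or control 5 it was 2, and without ECL 4 the number after ECL was 1, as against 2 without ECL 3, control 1, control 2 or control 5.

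Of 9 genes of GABA uptake, breakdown and precursor supply, 7 were tested. Slc38a3, a glutamine transporter, was called higher after both lesions (log2 fold changes 1.08 and 0.96, edgeR adjusted p = 0.0255 and 0.0326). Its SCL call was lost without control 1 (0.96), control 5 (0.98), SCL 2 (0.85) or SCL 3 (1.07), and its ECL call without control 1 (0.84), control 2 (0.94), control 4 (0.92), control 5 (0.86), ECL 2 (0.95), ECL 3 (0.85) or ECL 4 (0.86). Glul, the astrocytic glutamine synthetase, fell by 0.70 after ECL (adjusted p = 0.0115), a call lost with TMM factors from all symbols (-0.50, adjusted p = 0.0576). None of the other 5 genes passed the test after either lesion.

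Of 17 other neuropeptide genes, 10 were tested. In SCL cultures 2 were called higher and 1 lower, where 24.9% of all genes tested were called. In ECL cultures 1 was called higher and 2 lower, where 27.8% of all genes were called. These counts do not stand clear of that background. Pnoc, the precursor of nociceptin, was 1.54-fold higher after SCL and 1.69-fold higher after ECL (edgeR adjusted p = 0.0354 and 0.0117). After SCL that call was lost without any one of control 1 to control 4 (log2 fold changes 0.63, 0.61, 0.64 and 0.56) or of SCL 1 to SCL 3 (0.61, 0.69 and 0.45), and after ECL without ECL 4 (0.59). Nts, the neurotensin precursor, was 2.42-fold higher after SCL (adjusted p = 0.0272), a call lost without control 2 (1.104), control 3 (1.115) or SCL 1 (1.28), and the gene was not among those tested without SCL 2 or SCL 3. Without control 2, SCL 1, SCL 2 or SCL 3, 0 genes of this list were called higher after SCL, and without control 3 it was 1. The granin Chgb fell after SCL and after ECL (-0.81 and -0.87, adjusted p = 0.0037 and 0.000743), in each of the 12 fits. Chga fell by 0.60 after ECL (adjusted p = 0.0426), a call lost without control 2 (-0.56), control 3 (-0.51), control 5 (-0.53) or any single ECL library (-0.49, -0.62, -0.62 and -0.67), and with TMM factors from all symbols (-0.43, adjusted p = 0.156).

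Among 9 genes of neuropeptide processing, the amidating enzyme Pam showed the largest change. Pam, which forms the carboxy-terminal amide that neuropeptide Y and cholecystokinin need for activity, fell from a mean of 343 CPM in controls to 91.1 CPM after SCL and 84.2 CPM after ECL. The log2 fold changes were -1.91 ± 0.30 SE and -2.02 ± 0.33 SE (edgeR adjusted p = 0.00213 and 0.000826), without overlap between groups and in each of 12 fits. Scg3 fell by 0.65 after SCL (adjusted p = 0.0139), a call lost with TMM factors from all symbols (-0.43, adjusted p = 0.0676), and Scg5, the chaperone of a prohormone convertase, was 1.35-fold and 1.41-fold higher (adjusted p = 0.0434 and 0.0351). The Scg5 call was lost without any 1 of SCL 1 to SCL 3 (0.31, 0.47 and 0.44) or of the 5 controls (0.45, 0.41, 0.41, 0.42 and 0.47) after SCL, and without ECL 1 (0.34), ECL 2 (0.48) or any 1 of the 5 controls (0.51, 0.48, 0.47, 0.48 and 0.53) after ECL.

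Of 16 genes listed for response to the members' products, namely receptors and the reelin adaptor Dab1, 7 were tested and 1 was called after each lesion. After ECL, 2 were called lower without ECL 1. With TMM factors from all symbols, Dab1, which is not a receptor, was called higher after ECL beside the 1 called lower. Sstr3, the somatostatin receptor of neuronal cilia, fell from 30.5 CPM to 10.3 CPM after SCL and 7.37 CPM after ECL (log2 fold changes -1.57 ± 0.34 SE and -2.04 ± 0.34 SE, edgeR adjusted p = 0.00701 and 0.000861), without overlap and in each of 12 fits. The neuropeptide Y receptor gene Npy1r averaged 30.2 CPM in controls, 24.8 CPM after SCL and 26.01 CPM after ECL, and Npy2r 15.2, 22.4 and 17.6 CPM.

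Across the 13 libraries, the gene whose log2 level was most like that of Npy was Ucp2 (Pearson r = 0.916), a mitochondrial carrier gene. For Gad1 it was 4930570G19Rik (r = 0.916), for Gad2 Wbp4 (0.823), for Slc32a1 Syt11 (0.941), for Sst Gca (0.908) and for Pvalb Elovl7 (0.82). Reln was most like Atp1b1 (r = 0.96), which encodes a subunit of the sodium pump, and Vip, Cck and Calb2 like Srsf12 (0.845), Nat14 (0.886) and Mgarp (0.87). The libraries differ in group and depth, so that these values describe likeness across 13 points and carry no test. No member was the closest match of another.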

How the data were processed

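RNA-seq counts of 13 CA1 libraries were analysed. Adapter trimming by the authors used cutadapt 3.5, alignment to mm10 STAR 2.7.8a, and unstranded counting over GENCODE M25 genes featureCounts 2.0.1. The authors deposited raw counts with no normalization. Between 63.0% and 73.9% (controls) and up to 74.3% (lesioned) of counts from 1 to 20 were even, so mates were apparently counted separately, and halved counts were tried as an alternative. Each pair of groups was fitted separately by the two-sided quasi-likelihood test of edgeR 4.0.16 (R 4.3.3), with TMM factors over genes whose mean normalized count reached 150, Benjamini-Hochberg adjustment over all of them and a threshold of 0.05. The code was tested on simulated data. Levels in CPM use summed counts and TMM factors over 11649 genes in all libraries. Exon lengths, overlaps and gene positions come from GENCODE M21 on GRCm38, promoters from RefSeq. Standard errors are the absolute log2 fold change over the square root of F. Ratios were tested by exact permutation. DESeq2 1.42.0 and other fits served as alternatives.

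The 10 members, the gene lists and the tests were chosen with earlier results of these data known. Named genes were the members, per list up to 2 called genes with the largest rise and up to 2 with the largest fall, and for each member the gene with the highest Pearson r. Nothing says that libraries came from separate animals, so p-values measure the spread between these cultures. No sequencing batch or date is given in the sources used here, and groups differ in sex.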

Additional observations from a re-analysis of the deposited data

Results flagged for a closer look

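Within each group of 4 or 5 libraries, the highest and lowest values of every member were checked for a gap to the rest, and 3 of 51 groups had one, where chance gives about 1 in 20. Cck in control 3 was 304 CPM, far above the other controls. Pvalb per core GABAergic count was 0.308 in ECL 1, below the other ECL libraries. Reln per core GABAergic count was 0.0665 in SCL 1, above the other SCL libraries. No member differed between ECL and SCL by the test of that difference.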

How the results depend on the processing

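Direction and side of the threshold were the same in 677 of 776 values of single members under alternatives, while 49 lost and 4 gained a call and 46, none of them a called value, changed sign. The 776 include values with no call to lose, among them all ratios and all values between the lesions. Each called value had 20 alternatives. After SCL the call was lost in 13 of them for Gad1 and 11 for Reln. After ECL it was lost in 10 for Npy, 8 for Cck, 4 for Gad1 and 3 for Slc32a1. Npy after SCL was called in 20 of 20 alternatives. The number of members called after SCL was 1 with TMM factors over all symbols, no mean minimum, filterByExpr, a threshold of 0.01 or the replicate block by heading number, and 1 to 3 when a library was left out. After ECL it was 2 with a sex term or the replicate block by heading number, 0 at a threshold of 0.01, and 1 to 4 when a library was left out. All genes called after SCL numbered 5390 with no mean minimum, 1045 at 0.01, 1824 with the replicate block by heading number and 1679 to 2797 with a library left out (fewest without SCL 3). After ECL they numbered 8034 with no mean minimum and 1492 at 0.01. Between ECL and SCL they numbered 62 with DESeq2, 217 with no mean minimum, 1 in a fit of all libraries or with a sex term, and 0 to 54 with a library left out (most without SCL 3). A threshold of 0.01 lowers counts by construction. The cause of the other shifts was not tested.

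With TMM factors over all symbols, calls were higher in 80.8% of cases after SCL in place of 52.8%, and in 77.8% after ECL in place of 54.8%. Signs changed for Gad2 after SCL (0.10 with TMM over all symbols and with no mean minimum) and after ECL (0.0544 in both), and for Vip after ECL (0.16 in both, 0.0329 with filterByExpr, 0.0874 with a sex term). A sex term also turned Vip after SCL to -0.0935, Pvalb after ECL to -0.0093, and between the lesions Sst to -0.0514, Pvalb to -0.15 and Vip to 0.25. With Gad2 alone as the denominator, the ratio of Reln after ECL turned to -0.30 and that of Vip between the lesions to -0.0221 on the log2 scale. Leaving out a library gave ranges across 0 after SCL for Gad2 (-0.21 to 0.0032), Pvalb (-0.0875 to 0.20), Vip (-0.0618 to 0.20) and Cck (-0.10 to 0.21), and after ECL for Vip (-0.16 to 0.10). Between the lesions such ranges were -0.13 to 0.10 for Gad2, -0.0687 to 0.23 for Sst, -0.0211 to 0.24 for Pvalb, -0.24 to 0.0744 for Vip and -0.49 to 0.12 for Npy. For ratios they were -0.0088 to 0.10 for Reln after ECL, -0.10 to 0.20 for Vip and -0.38 to 0.27 for Npy between the lesions.

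Replicate numbers recur between groups, but same-numbered libraries did not all deviate together (correlations of -0.11 to 0.239 for SCL, -0.165 to 0.426 for ECL and -0.139 to 0.542 between the lesions). With the replicate block, 2342 genes and 2 members (Slc32a1, Npy) were called after SCL, 2663 genes and 4 members after ECL, and 0 genes between the lesions. Gad2 and Pvalb after SCL were then 0.0015 and -0.0361, and Vip after ECL 0.0015. By the numbers in the column headings, a block chosen after seeing the data, correlations were -0.408 to 0.152 for SCL and -0.316 to 0.164 for ECL. Between the lesions they were -0.326 to 0.542.

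Calb2 had 24 to 333 counts per library and did not reach the count minimum. Each comparison rests on 4 or 5 cultures a group.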
